A study of Mus musculus with 6 samples.

Results

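Sodium channel, pacemaker channel and connexin genes were examined in adult mouse hearts that lacked the Id1 and Id3 genes to different degrees. The genes were taken from a list of 8 symbols, Scn4a, Scn4b, Scn7a, Hcn2, Hcn4, Gja1, Gja4 and Gja5, and each was measured by the probe sets annotated to that symbol alone. Of these, 7 genes had 1 such probe set each, out of 19938 genes named in the same way, and Scn4a was not analysed here.

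Expression was measured on 6 Affymetrix Mouse Gene 1.0 ST arrays, each hybridised with RNA from heart at 6 months of age (postnatal day 180). The WT array is the only wild-type sample. The Id control group has 2 arrays of different genotype: Id control 1 is Id1F/+Id3-/-, with a floxed and a wild-type Id1 allele and no functional Id3, and Id control 2 is Tie2Cre+Id1-/-Id3+/-, lacking Id1 and keeping 1 intact copy of Id3. The Id cKO array is Tie2Cre+Id1F/-Id3-/-, so that the remaining Id1 allele is deleted where Tie2Cre is active, in endothelial cells and blood cells. A pair of further Id cKO hearts, referred to as the incubated pair, consists of 1 treated with recombinant mouse IGFBP3 and 1 untreated. The labels name no alleles for that pair, and no wild-type heart was run beside it. How many animals each sample came from is not stated, so a p-value here reflects the scatter of these samples alone, and that scatter may be technical.

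The members of the list belong to channel and connexin families that serve the start and spread of the heartbeat, although not every member does. Voltage-gated sodium channels open on depolarisation and carry the upstroke of the action potential. Their alpha subunits form the pore, and small beta subunits such as the product of Scn4b adjust gating and hold the channel to neighbouring proteins. Pacemaker channels of the HCN family pass the funny current, which brings nodal cells towards threshold. Connexins join into gap junctions that let current pass from cell to cell. Connexin 43 (Gja1) is the main connexin of working ventricle, connexin 40 (Gja5) serves atrium, fast-conducting fibres and arterial endothelium, and connexin 37 (Gja4) joins endothelial cells, mostly of arteries.

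All values are log2 expression levels, so that a difference of 1 is 2-fold. A level is comparable between arrays for 1 gene, and levels of different genes are not set against each other, since each rests on its own probe set. The 4 arrays of WT, Id control and Id cKO hearts had medians between 5.73 and 5.83 as deposited, and the incubated arrays 4.45 and 4.51. The incubated pair was therefore compared with the other arrays only after quantile normalization, which gives all 6 arrays 1 distribution. Tests covered the 9602 genes whose mean over the quantile-normalized arrays was at least 6, a limit called the floor here, and all 7 genes were past it. A gene was counted as 2-fold apart when every array of one group differed at least 2-fold, in the same direction, from every array of the other. In addition, limma with Benjamini-Hochberg adjustment was run where a group had more than 1 array. Only the Id control pair (n = 2) gives limma its spread between arrays as deposited, and that spread includes the difference in genotype between the pair. Of the first 4 arrays, Id1 was lower in Id control 2 and Id cKO, and Id3 was lower in Id control 1 and Id cKO. Id control 2, with 1 intact copy of Id3, was not below WT in Id3. As deposited, Id1 was at 8.14 on the WT array, 8.11 in Id control 1, 6.41 in Id control 2 and 6.48 in Id cKO, and Id3 was at 7.18, 5.02, 7.32 and 4.69 in the same order. On the treated and untreated arrays, which are scaled lower, Id1 was at 5.70 on both as deposited, and Id3 at 4.13 and 3.86. Those values are not comparable with the deposited values of the first 4 arrays. After quantile normalization Id1 was at 6.51 in the untreated heart, 6.07 in Id cKO and 7.79 in WT. Id3 was then at 4.74, 4.24 and 6.81 in the same order. The treated heart, too, lay between Id cKO and WT for both genes. The sex-linked genes Xist and Eif2s3y set WT apart from the Id control and Id cKO arrays. As deposited, Xist was at 4.03 in WT and 8.15 to 8.62 on those arrays, and Eif2s3y at 7.98 against 2.73 to 3.03. In every comparison of the Id control arrays or the Id cKO array with WT, sex pattern and Id genotype therefore differ together and cannot be told apart. The treated and untreated hearts shared the sex pattern of WT, with Xist at 3.85 and 3.92 after quantile normalization, against 3.59 in WT. Between those hearts and WT, the set of arrays, incubation and Id genotype differ together and cannot be told apart. The heart muscle markers were high on every array, with Actc1 between 13.64 and 14.03 and Atp2a2, the calcium pump, between 13.22 and 13.78 after quantile normalization. These are the 2 highest of 12 markers, and their levels do not stand for the list. Tnni3 ran from 12.75 in WT to 11.33 in the untreated heart. Between the untreated heart and Id cKO, 11 of the 12 were lower and 0 higher (median -0.31).

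The promoters are shown of the 5 genes whose quantile-normalized levels spanned at least 1 over the arrays. Id proteins act by binding E proteins, which otherwise bind E-boxes with the letters CANNTG, and E-box letters found in the 250 bases before the transcription start are in capitals. The sequences are from RefSeq (GRCm38.p6), 5′ to 3′ on the strand of the gene. Those of Scn4b lie at chr9:45138374-45138623 (plus strand), of Scn7a at chr2:66784911-66785160 (minus strand), of Gja1 at chr10:56377050-56377299 (plus strand), of Gja4 at chr4:127314040-127314289 (minus strand) and of Gja5 at chr3:97032152-97032401 (plus strand).
Scn4b: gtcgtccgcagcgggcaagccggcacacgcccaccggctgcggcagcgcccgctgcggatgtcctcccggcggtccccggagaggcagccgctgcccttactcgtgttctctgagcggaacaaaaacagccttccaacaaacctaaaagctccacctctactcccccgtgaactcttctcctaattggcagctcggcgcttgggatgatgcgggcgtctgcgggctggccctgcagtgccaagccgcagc
Scn7a: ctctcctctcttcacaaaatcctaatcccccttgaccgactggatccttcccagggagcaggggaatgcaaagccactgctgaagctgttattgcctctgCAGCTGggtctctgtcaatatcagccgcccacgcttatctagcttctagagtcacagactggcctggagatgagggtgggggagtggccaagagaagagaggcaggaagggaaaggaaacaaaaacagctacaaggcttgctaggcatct
Gja1: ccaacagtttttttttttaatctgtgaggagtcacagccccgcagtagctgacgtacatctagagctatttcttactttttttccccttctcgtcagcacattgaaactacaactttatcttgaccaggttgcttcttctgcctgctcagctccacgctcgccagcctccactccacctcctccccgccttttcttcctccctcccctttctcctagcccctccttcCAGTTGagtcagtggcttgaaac
Gja4: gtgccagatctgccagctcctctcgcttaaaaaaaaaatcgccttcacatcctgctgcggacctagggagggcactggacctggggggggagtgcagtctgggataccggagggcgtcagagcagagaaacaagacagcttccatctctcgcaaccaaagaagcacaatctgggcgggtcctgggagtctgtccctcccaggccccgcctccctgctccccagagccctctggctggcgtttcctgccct
Gja5: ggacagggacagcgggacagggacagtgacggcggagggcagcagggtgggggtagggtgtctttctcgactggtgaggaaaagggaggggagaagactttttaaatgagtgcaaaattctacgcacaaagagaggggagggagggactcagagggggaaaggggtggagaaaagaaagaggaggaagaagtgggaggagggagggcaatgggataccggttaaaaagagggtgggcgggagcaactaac

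The motif CANNTG reads the same on both strands, so 1 search covers both, and it takes in the narrower forms given here. Scn7a held 1 match, CAGCTG, Gja1 held 1 match, CAGTTG, and Scn4b, Gja4 and Gja5 held 0. Of the other measured genes Hcn2 held 1, CAGGTG, and Hcn4 held 0. Thus 3 of the 7 windows held the motif, whereas 66.2% of the 32851 promoter windows of the same length in the RefSeq table did. A match is a description of letters, and its absence says only that these letters are not in the window.

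Scn4b encodes the beta-4 subunit, which can act on the cardiac sodium channel in late and resurgent current. As deposited, Scn4b was at 8.18 in WT, 7.16 in Id control 1, 6.37 in Id control 2 and 6.24 in Id cKO. WT was thus the highest of the 4, and Id control 2 and Id cKO differed by 0.13, less than the gap of 0.79 within the Id control pair. The mean of the Id control arrays was 6.77 ± 0.56 (SD, n = 2), a difference from WT of -1.41 (limma SE 0.36, 95% interval from -2.37 to -0.45). The adjusted p was 0.64, so the difference did not pass limma across all genes. By size it was called, with both Id control arrays at least 2-fold below WT, but the difference was 1.01 for Id control 1, close to the limit. After median centring of the arrays, that array lay inside the limit and no member was called.

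The count was 1 of 7 genes for Id control against WT, against a background of 0.167% of all genes tested. In Id cKO, Scn4b was 1.94 below WT (3.84-fold), and again it was the 1 gene of 7 that was 2-fold apart, against a background of 3.27%. Both comparisons use the same WT array and so do not check each other. Against Id control, Scn4b in Id cKO was 0.53 lower (limma SE 0.36, interval from -1.49 to 0.43, adjusted p = 0.56).

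After quantile normalization Scn4b was at 7.83 in WT, 6.76 and 5.97 on the Id control arrays, 5.81 in Id cKO, 5.54 in the treated heart and 5.63 in the untreated one. All 5 arrays with altered Id genes lay below WT, and those with the conditional knockout lay lowest. The untreated heart differed from WT by -2.20, and in that comparison 3 of 7 genes were 2-fold apart (Scn4b, Scn7a and Gja4) against a background of 13.2%. WT exceeded each of the other 5 arrays at least 2-fold, a pattern chosen after its values were seen and found in 2 of the 9602 genes (0.0208%), or in 0 after median centring. The mean of Scn4b over the arrays was 6.26, little above the floor of 6, and only WT and Id control 1 lay above 6. Its high WT value thus helped it past the floor, and the other arrays lay near or under that limit. Eif2s3y, a Y-linked gene, was at 7.63 for WT and at 7.85 and 7.01 on the treated and untreated arrays, against 2.48 to 2.81 on the other arrays, and the part of sex in the Scn4b values was not tested. Summed cardiomyocyte markers, with 12 of 12 past the floor, spanned 0.53 over the arrays, from 16.74 in Id control 1 to 16.22 in the untreated heart. The sum is led by the most abundant genes. In the untreated heart all 12 were below WT, with a median difference of -0.32, and Tnni3 was 2-fold apart (-1.43). In Id cKO 9 were below WT and 3 above (median -0.045). The part of muscle content in the Scn4b values was not tested. In bulk heart RNA, fewer cells of a type and less RNA per cell cannot be told apart.

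Scn7a encodes Nax, an unusual member of the sodium channel family that responds to extracellular sodium and is not opened by voltage in the usual way. As deposited it was at 8.29 in WT, 8.27 and 8.86 in Id controls 1 and 2 and 7.89 in Id cKO. Id cKO was the lowest of the 4, at 0.67 below Id control (limma SE 0.28, interval from -1.42 to 0.08, adjusted p = 0.38). The Id control mean was 8.56 ± 0.41 (SD, n = 2) and lay 0.27 above WT (adjusted p = 0.78).

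The incubated hearts stood at the other end. After quantile normalization Scn7a was at 9.46 in the treated heart and 9.22 in the untreated one, against 7.50 to 8.40 on the other 4 arrays. The gap between the groups was 0.82, short of the 2-fold gap that 1.26% of all genes tested had in this direction. How many of all genes have a smaller gap of this kind was not counted. The untreated heart was 1.73 above Id cKO (3.31-fold), although both carry the label of the conditional knockout and neither had IGFBP3. Of the 7 genes, 2 were 2-fold apart between these arrays, Scn7a and Gja4, against a background of 7.78%. The set of arrays, the date codes in the labels, the sex pattern and incubation differ together between these 2 hearts, and their parts cannot be told apart.

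The summed level of fibroblast markers was also highest on the incubated arrays, although 3 of the 8 genes, Col1a2, Dcn and Postn, were above all other arrays on both. All 8 were past the floor, and their sum was 11.98 in WT, 12.20 and 12.96 on the Id control arrays, 12.72 in Id cKO, and 13.76 and 13.77 on the treated and untreated arrays. Between the untreated heart and Id cKO all 8 were higher, by a median of 0.92. The collagen genes Col1a1 and Col3a1 did not set the incubated pair apart, with Col1a1 at 9.41 in the treated heart against 10.09 in Id cKO, and Col3a1 at 9.75 in the untreated heart against 9.78 in Id control 2. Of the Schwann cell and neuron markers 0 of 8 were past the floor, with Sox10 between 5.72 and 6.12. The part of these cells in the Scn7a values was not tested.

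**Figure D1:**
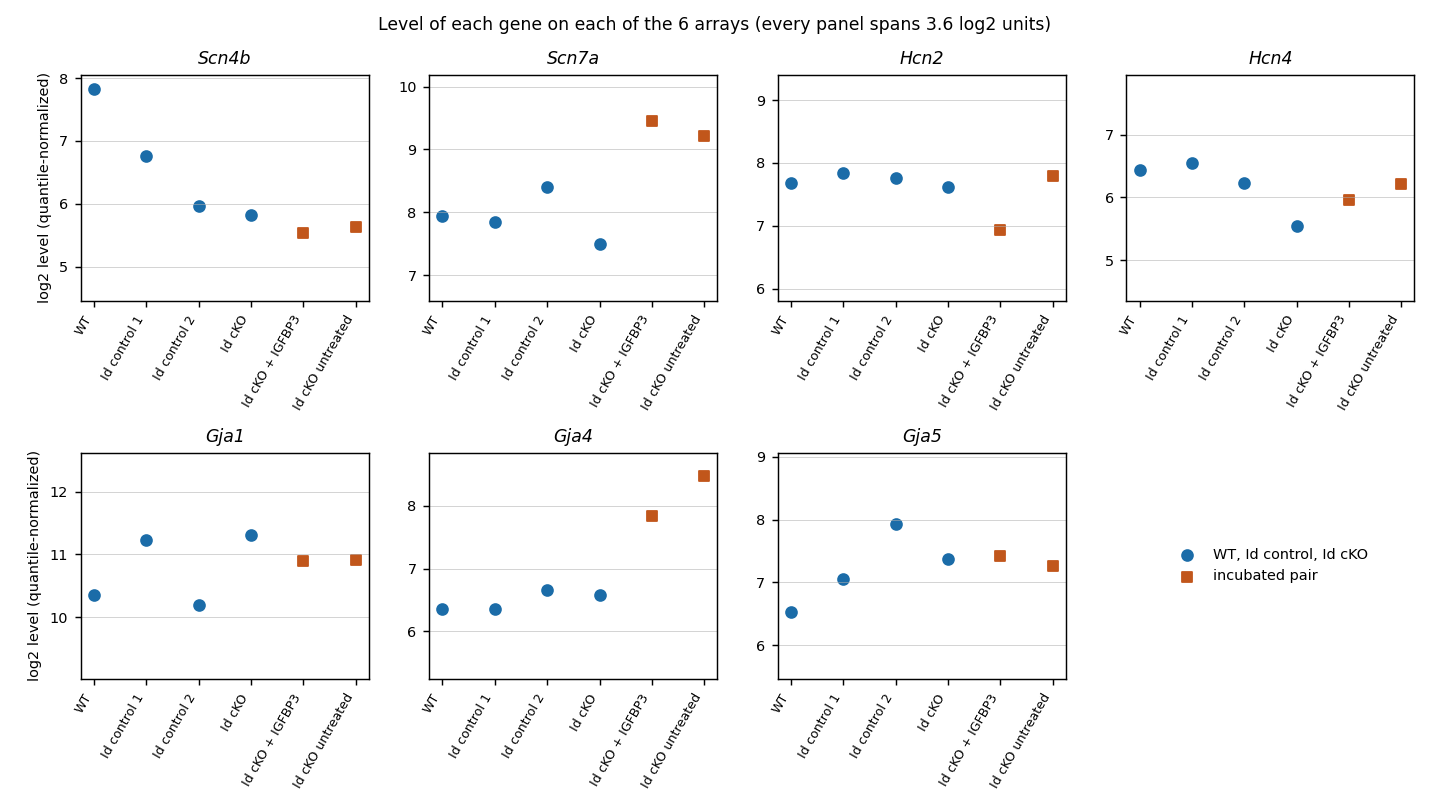
Each panel gives the quantile-normalized log2 level of 1 gene (y axis) on the 6 arrays (x axis), with circles for the first 4 arrays and squares for the incubated pair. Scn4b is highest in WT at 7.83, Scn7a and Gja4 are highest on both incubated arrays, and Gja1 is high in Id control 1 and Id cKO.

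Each pacemaker channel gene spanned less than 1 over the 6 quantile-normalized arrays. Hcn4 encodes the main pacemaker channel of the sinus node. It was at 6.83 in WT, 6.95 and 6.63 on the Id control arrays and 5.98 in Id cKO, so that Id cKO was the lowest of the 4 arrays. The mean difference from Id control, with its mean of 6.79 ± 0.23 (SD, n = 2), was -0.81 (limma SE 0.19, interval from -1.32 to -0.29). It was the member with the smallest adjusted p in that comparison, 0.24, and did not pass. After quantile normalization Hcn4 was at 5.55 in Id cKO, 5.96 in the treated heart and 6.22 in the untreated one, against 6.23 to 6.55 on the WT and Id control arrays. All 3 conditional knockout hearts were thus below the others, but the untreated one differed from Id control 2 by only -0.0097. How many of all genes show that order was not counted. Between WT and the Id controls, Hcn4 differed by -0.043 (adjusted p = 0.95), and the sign turned to 0.051 after median centring.

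Hcn2, which encodes a pacemaker channel found in working heart muscle and nerve as well as in nodal cells, was nearly level on the first 4 arrays. It was at 8.03 in WT, 8.27 and 8.20 on the Id control arrays and 8.01 in Id cKO, a span of 0.26. The difference between Id cKO and Id control was -0.23 (limma SE 0.14, interval from -0.60 to 0.15, adjusted p = 0.53), so a change of more than 2-fold lay outside the interval. The treated heart was the exception. As deposited, Hcn2 was at 6.15 with IGFBP3 and 6.98 without, a difference of -0.83. After quantile normalization the treated heart was 0.68 below the next lowest array, and the untreated one was at 7.80, within the range of the controls.

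Of the sinus node markers 7 of 8 were measured and 3 were past the floor. Shox2 and Isl1, which define the node, were below the floor. Shox2 lay between 4.03 and 4.79 and Isl1 between 4.31 and 5.08, while the summed list, led by Smoc2 and Bmp4, was at 9.33 in WT, from 9.55 to 9.66 over Id cKO and both Id control arrays, and at 10.28 and 10.31 in the incubated hearts. The part of nodal cells in the Hcn4 values was not tested.

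Gja1, the connexin 43 gene, split the arrays without regard to their group. As deposited it was at 10.73 in WT, 11.60 in Id control 1, 10.63 in Id control 2 and 11.66 in Id cKO. Id control 1 and Id cKO were alike within 0.065, WT and Id control 2 within 0.10, and the Id control arrays were 0.97 apart. None of the 7 genes was 2-fold apart between the Id control arrays, against a background of 0.989%. Among these 4, the arrays with the higher level are those whose genotype has no functional Id3. The arrays with the lower level differ in other ways too. Id control 2 had high atrial muscle markers, with Myl7 at 12.27 as deposited against 5.28 in WT, and WT differs from the other arrays here in sex pattern. The Gja1 pattern was seen with single arrays, and the parts of Id3, atrial tissue, sex and date code in it were not tested. The Id control mean was 11.11 ± 0.68 (SD, n = 2), and Id cKO was 0.55 above it (limma SE 0.42, interval from -0.59 to 1.68, adjusted p = 0.61). Against WT, Gja1 was 0.93 higher in Id cKO (1.90-fold), short of the 2-fold limit. Against Id control 2 alone, which shares a date code with Id cKO, it was 1.03 higher and was then the 1 member called. Of the 9602 genes, 103 were called higher and 123 lower in that setting. The incubated hearts, also labelled as conditional knockouts, were at 10.90 and 10.91 after quantile normalization, between the low values (10.19 and 10.36) and the high ones (11.23 and 11.32).

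Gja5, the connexin 40 gene, was lowest in WT. As deposited it was at 6.92 in WT, 7.46 in Id control 1, 8.37 in Id control 2 and 7.78 in Id cKO. The Id control mean of 7.92 ± 0.64 (SD, n = 2) was 0.99 above WT (limma SE 0.40, interval from -0.080 to 2.07, adjusted p = 0.64), with 0.54 for Id control 1 and 1.44 for Id control 2. Id cKO was 0.86 above WT and -0.13 from Id control (adjusted p = 0.91), inside the Id control pair. After quantile normalization the incubated hearts were at 7.41 and 7.26, beside Id cKO at 7.38, and all 5 arrays with altered Id genes were above WT at 6.54. The Id control and Id cKO arrays also differ from WT in sex pattern, and the part of sex in the Gja5 values was not tested.

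Id control 2, with the highest Gja5, also had high levels of atrial muscle markers. Its atrial light chains Myl7 and Myl4 were at 11.90 and 12.67 after quantile normalization, against at most 5.56 and 6.66 on the other 5 arrays. The summed atrial list, with 7 of 9 measured markers past the floor and led by Nppa, was at 11.04 in WT, 11.61 and 14.62 on the Id control arrays, 13.99 in Id cKO, and 13.70 and 13.56 in the incubated hearts. Without Id control 2, the Gja5 difference between Id control and WT was 0.54, and with Id control 2 alone it was 1.44 and past the 2-fold limit. The part of atrial tissue in the Gja5 value of that array was not tested.

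**Figure D2:**
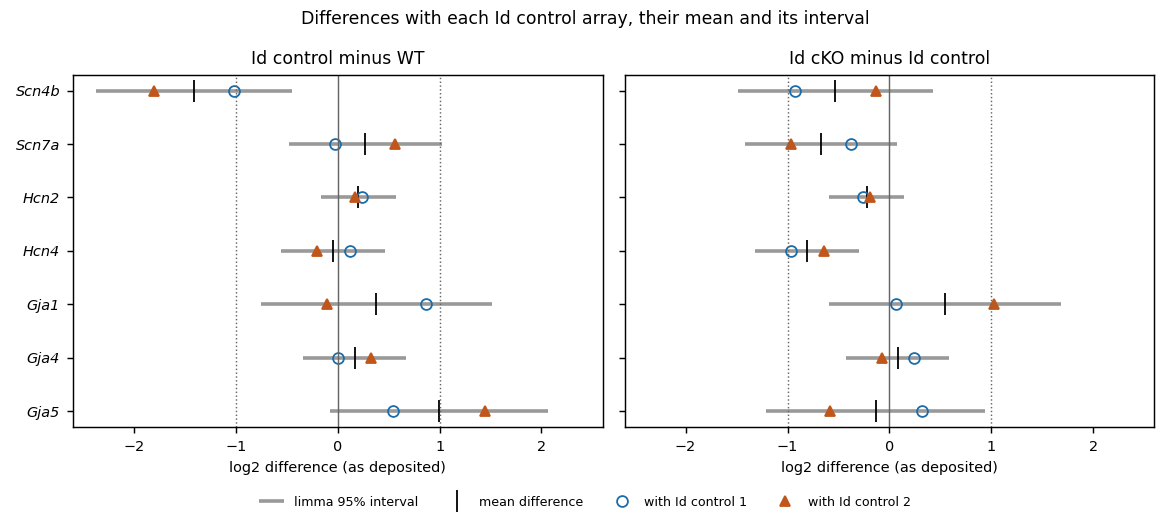
For each gene the circle and the triangle give the log2 difference with Id control 1 and with Id control 2, the bar its mean and the grey line the limma 95% interval, with dotted lines at 2-fold. Scn4b is left of the 2-fold line with both arrays in Id control minus WT, at -1.01 and -1.81, and no gene is past it with both arrays in Id cKO minus Id control.

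Gja4, the connexin 37 gene, was nearly level on the first 4 arrays, at 6.75 in WT, 6.75 and 7.07 on the Id control arrays and 6.99 in Id cKO, a span of 0.32. The difference between Id cKO and Id control was 0.08 (limma SE 0.19, interval from -0.43 to 0.59, adjusted p = 0.89). On the incubated arrays it was at 7.06 with IGFBP3 and 7.65 without as deposited, above the first 4 or among them although these arrays are scaled lower. After quantile normalization the values were 7.84 and 8.48, against 6.35 to 6.66 on the other arrays. Both incubated arrays were thus at least 2.26-fold above each of the other 4. This pattern, chosen after the values were seen, held for 1 of the 7 genes and for 1.26% of all genes tested. The untreated heart was 1.90 above Id cKO (3.74-fold), and the treated heart 0.59 below the untreated one.

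The summed endothelial markers were also higher on the incubated arrays, but not every gene was. The summed level of 12 endothelial genes was 12.46 in WT, 12.45 and 12.50 on the Id control arrays, 12.88 in Id cKO, and 13.31 and 13.32 on the treated and untreated arrays, a span of 0.87. The 12 arterial genes, of which 11 were past the floor, gave 10.99 in WT, 11.17 and 10.95 on the Id control arrays, 11.65 in Id cKO, and 11.82 and 11.76 in the incubated hearts. Both incubated arrays were above all other 4 for 8 of the 12 endothelial genes and 5 of the 11 arterial ones, and the share among all genes was not counted. In the untreated heart 4 of 12 and 5 of 11 were lower than in Id cKO, among them Kdr, a VEGF receptor, at 9.46 against 9.86, and the Notch ligand gene Dll4 at 7.68 against 8.34. Those genes were named after their values were seen, and the part of these cells in the Gja4 values was not tested.

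**Figure D3:**
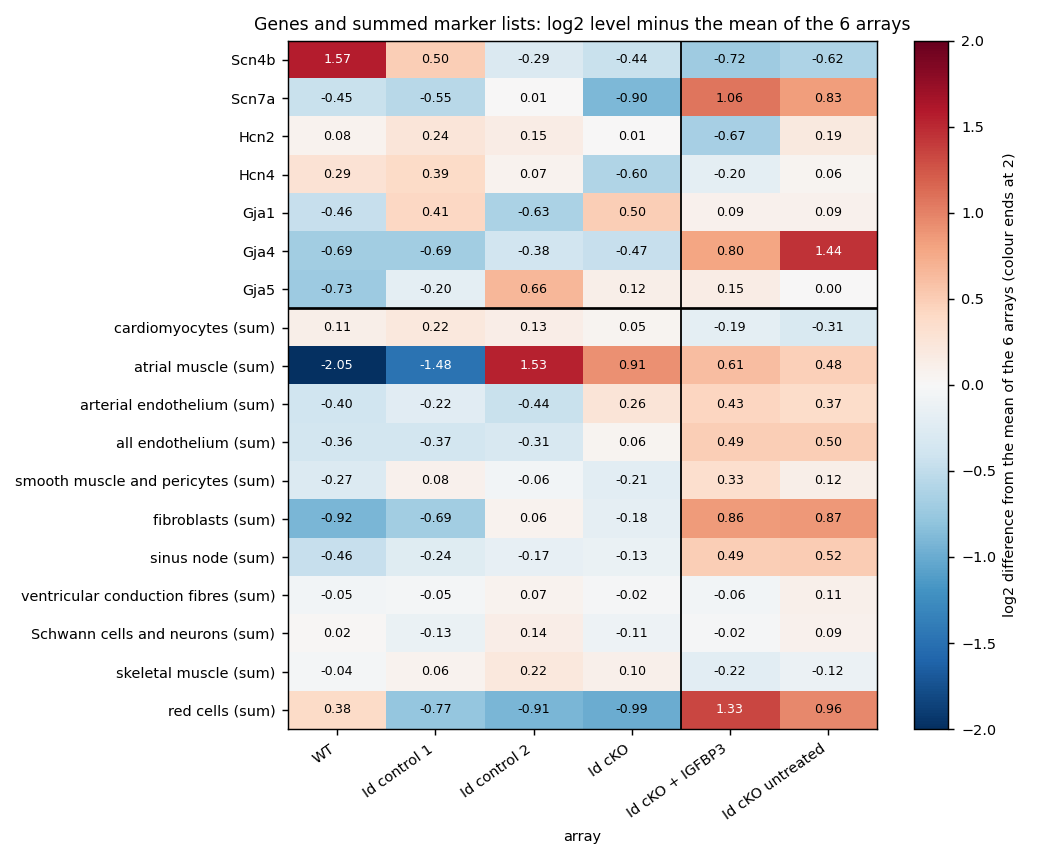
Rows are the 7 genes and the summed marker lists, columns the 6 arrays, and each cell gives the quantile-normalized log2 level minus the mean of that row over the arrays. Scn7a and Gja4 are highest on the incubated arrays. The fibroblast and endothelial sums are highest there too, as are those of red cells, sinus node, and smooth muscle and pericytes. The atrial sum is highest in Id control 2, the array with the highest Gja5.

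No member passed limma in any of the 3 comparisons it was run for, and this is close to what all genes gave. Between Id cKO and Id control 0 of 7 genes passed, against a background of 0.0208%, and 0 of 7 were 2-fold apart, against 1.07%. At an unadjusted p under 0.05, 1 of 7 genes was found, Hcn4, against 14.3% of all genes. The median difference of the 7 genes was -0.23, beside -0.037 for all genes. Between Id control and WT 0 passed limma among the 7 and among all genes (0.00%), with 1 of 7, Scn4b, at an unadjusted p under 0.05, against 7.33%. There the median of the 7 genes was 0.20, beside 0.075 for all.

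When the Id cKO and untreated arrays were taken as 1 group after quantile normalization and set against Id control, 0 of 7 genes passed limma (background 0.0104%) and 0 of 7 were 2-fold apart (0.646%). At an unadjusted p under 0.05 the count was 0 of 7, against 10.0%. Scn4b was -0.64 from Id control (limma SE 0.30, interval from -1.41 to 0.13) and had the smallest adjusted p of the 7, 0.52. Without the Id cKO array, Gja4 (1.97, adjusted p = 0.0165) and Scn7a (1.10, adjusted p = 0.0468) passed, but so did 2805 of the 9602 genes.

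The comparison of IGFBP3 with no treatment rests on 1 heart against 1. None of the 7 was 2-fold apart between the treated and untreated arrays, against a background of 1.19%, and there is no replicate check. The differences, treated minus untreated as deposited, were -0.83 for Hcn2, -0.59 for Gja4, -0.29 for Hcn4, -0.16 for Scn4b, 0.05 for Gja1, 0.19 for Gja5 and 0.29 for Scn7a. On the quantile-normalized values, Scn4b was lower and Gja5 higher than in WT both in the heart given IGFBP3 and in the untreated one. These directions were not particular to the conditional knockout. The Id control arrays had Scn4b at 6.76 and 5.97 against 7.83 in WT, and Gja5 at 7.06 and 7.93 against 6.54. No wild-type heart was run beside the incubated pair.

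**Figure D4:**
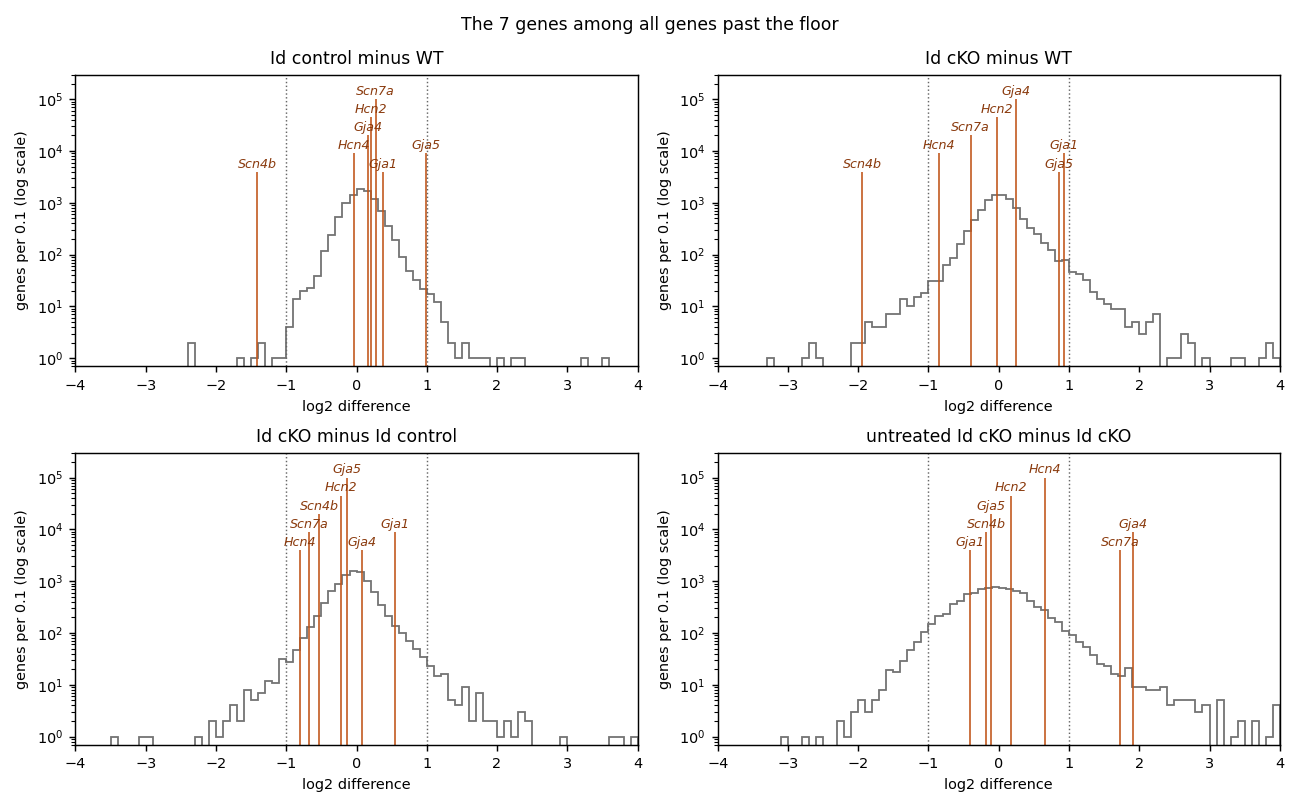
Each panel gives the number of genes past the floor per 0.1 of log2 difference (log axis) for 1 comparison, with vertical lines at the 7 genes and dotted lines at 2-fold, and differences larger than 4 counted in the end bins. Scn4b is the one of the 7 past the limit in Id control minus WT and in Id cKO minus WT, and Scn7a and Gja4 are past it in untreated Id cKO minus Id cKO.

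Other genes of the same systems were taken from lists of sodium channel subunits and partners, pacemaker channels, connexins, intercalated disc proteins and conduction transcription factors. Of 78 listed genes 69 had a probe set and 41 were past the floor. None of the 41 passed limma or was 2-fold apart in Id cKO against Id control or in Id control against WT, and the medians were -0.039 and 0.15. In Id cKO against WT, 1 of 41 was 2-fold apart, Id2, a relative of Id1 and Id3 also used in conduction fibres, 1.23 higher.

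The other sodium channel subunits gave little signal. Among the alpha subunits 0 of 7 measured genes were past the floor and among the beta subunits 0 of 2. Scn2b lay between 4.66 and 5.21 on the quantile-normalized arrays. The partners of the channel were measured better, with 8 past the floor. All 8 were lower in Id cKO than in Id control, by a median of 0.33, and 0 of 8 passed limma, while 43.6% of all genes were above 0 in that comparison. Without Id control 1, 7 of the 8 were lower. The furthest apart were Fgf13, a fibroblast growth factor homologue that binds the channel (-0.63, limma SE 0.24, adjusted p = 0.35), Gpd1l (-0.40, adjusted p = 0.35) and Rangrf, which aids its trafficking to the membrane (-0.34, adjusted p = 0.37).

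Of the pacemaker channels and their partners 0 of 3 measured genes were past the floor, with Hcn3 between 5.19 and 5.41. Of 16 other connexins and pannexins measured 5 were past it. Gja3 was lower in Id cKO than in Id control (-0.73, limma SE 0.15, adjusted p = 0.22), and Gjd3 was 0.14 higher (adjusted p = 0.69). Panx1, a pannexin channel gene, differed by 0.27 there (adjusted p = 0.48). On the untreated incubated array, however, it was 1.27 above Id cKO and 1.79 above WT after quantile normalization. Panx1 was then at 6.77 in the treated heart and 7.16 in the untreated one, against 5.37 to 5.89 elsewhere. Only the incubated pair lay above 6, so its high values there helped Panx1 past the floor.

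Intercalated disc genes hold the junctions at which Gja1 lies. All 14 were past the floor, 10 were above Id control in Id cKO, and 0 passed limma. Xirp2, an actin-binding protein of the disc, was 0.95 higher (limma SE 0.17, adjusted p = 0.21), and the catenin gene Ctnna3 (-0.55, adjusted p = 0.28) and the desmocollin gene Dsc2 (-0.54, adjusted p = 0.32) were lower. The desmoglein gene Dsg2 was 1.04 lower in the untreated heart than in Id cKO and 1.25 lower than in WT.

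Transcription factors of the conduction system were divided, with 6 of 14 above and 8 below Id control in Id cKO and 0 past limma. Tbx5, an activator of Gja5 in the conduction system, was at 8.05 in WT, 8.16 and 9.07 on the Id control arrays and 7.51 in Id cKO as deposited (-1.10 against Id control, limma SE 0.40, adjusted p = 0.34). Its highest array was Id control 2, the array with high Myl7 and Myl4. Hopx, a homeodomain-only protein, was at 8.92 in WT, 9.02 and 8.97 on the Id control arrays and 8.07 in Id cKO (-0.93, limma SE 0.14, adjusted p = 0.19). Id2 was 0.85 above Id control in Id cKO (adjusted p = 0.36).

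The genes nearest to each member in pattern were found by the root mean square difference between mean-centred quantile-normalized levels over the 6 arrays, for members whose levels spanned at least 1. Nearest to Scn4b were Arhgap20 (0.30), Il15 (0.40) and Osbpl6 (0.40), against a spread of Scn4b around its own mean of 0.81, so none was close. Scn7a had Gabra3 (0.064), Pla2g7 (0.12) and Mustn1 (0.17) beside a spread of 0.72, and Gja4 had Ace (0.084), Shisa5 (0.091) and Maff (0.12) beside 0.82. Ace encodes the angiotensin-converting enzyme. Gja5 had Itih5 (0.091), Itga8 (0.11) and Pam (0.12) beside a spread of 0.42, and Gja1 had Rtp4 (0.17), Sp100 (0.18) and Otud1 (0.18) beside 0.42. Hcn2 and Hcn4 spanned less than 1 and were not searched.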

How the data were processed

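The deposited values are log2 expression levels of 35557 probe sets, which the authors made with Affymetrix Expression Console and RMA, per the submitters' processing notes. The sources used here do not state versions, the genome build or which arrays were normalized together. Of the probe sets 21789 carried 1 gene symbol in the platform annotation, 1621 several and 12147 none, and only the first were used. They gave 19938 genes, and for the 999 with several probe sets the one with the highest mean was taken. By Entrez identifier 19856 symbols matched RefSeq (GRCm38.p6).

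Limma (version 3.58.1, R 4.3.3) was fitted to all 6 arrays in 5 groups on the deposited log2 values, and in 4 groups after quantile normalization for the joint comparison of Id cKO and untreated arrays with Id control, with a limit of 0.05 after Benjamini-Hochberg adjustment over 9602 genes. The fit has 1 residual degree of freedom in 5 groups and 2 in 4. Lone arrays are assumed to vary like the replicated ones. The functions were tested on simulated data. Comparisons of 1 array with 1 array have no p-value. Alternatives were other normalizations, floors, probe set summaries, a limma trend and leaving out arrays. Comparisons of the untreated array with Id cKO and with WT, and the patterns of the incubated pair or WT against all other arrays, were added after seeing the data. The genes and lists were chosen with earlier results of these data known. Named were all members, from each pathway list the 3 genes past the floor with the largest absolute Id cKO minus Id control difference and any 2-fold apart, the 2 highest markers of each list where a result turned on the list, and the nearest patterns. Other genes named, among them Shox2, Isl1, Sox10, Hcn3, Scn2b, Tnni3, Xist and Eif2s3y, were picked after their values were seen. The number of arrays limits the precision.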

Additional observations from a re-analysis of the deposited data

How the results depend on the processing

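Of 322 differences of single genes under another setting 13 changed sign, 9 of them with an array left out and 4 under another scaling, and 2 came to pass limma. They included Gja1 in treated minus untreated (-0.0051 after quantile normalization and -0.059 after cyclic loess), Hcn2 in Id cKO minus WT (0.041 after median centring), Gja4 and Gja5 in Id cKO minus Id control (-0.077 without Id control 1 and 0.32 without Id control 2), and Gja1, Scn7a and Hcn4 in Id control minus WT (-0.10 without Id control 1, and -0.023 and 0.12 without Id control 2). No paired analysis was possible because the labels give no replicate numbers. The 1 member 2-fold apart in Id control minus WT, Scn4b, was lost after median centring (0 of 7), and a floor of 8 removed it from the test (0 of 2 there and in Id cKO minus WT). That floor also left 1 of 2 members called in untreated Id cKO minus Id cKO and 1 of 2 in untreated Id cKO minus WT. Of the 3193 genes past it, 161 were 2-fold higher and 103 lower in the former, and 276 and 224 in the latter. Leaving out 1 Id control array gave 1 to 2 members for Id control minus WT and 0 to 1 for Id cKO minus Id control. Of all 9602 genes, Id control minus WT then had 133 higher and 18 lower without Id control 1, and 21 and 24 without Id control 2. For Id cKO minus Id control the counts were 103 higher and 123 lower without Id control 1, and 147 and 95 without Id control 2. For Id cKO and untreated Id cKO minus Id control, leaving out 1 array gave 0 to 1 members 2-fold apart and 0 to 2 passing limma, the upper values without the Id cKO array. Over all 9602 genes, 436 were 2-fold higher and 389 lower in that comparison without the Id cKO array. There Scn7a ran from -0.63 to 1.10, Gja1 from -0.12 to 0.92 and Gja5 from -0.60 to 0.26 over the arrays left out. Scn7a was at -0.041 without Id control 1. Hcn4 in Id control minus WT turned to 0.051 after median centring. That scaling moved the median difference of all genes in untreated Id cKO minus WT from -0.026 to 0.10. Over all genes limma called 1 in the joint comparison, 28 with the treated array added, 28 and 40 without Id control 1 and 2, and 2 without the untreated array or after cyclic loess. It called 2 in Id cKO minus Id control and 3 with a floor of 8, and 0 in Id control minus WT, where the smallest adjusted p was 0.328, against 1 with no floor.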

Other observations

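Fgf12, a fibroblast growth factor homologue that binds cardiac sodium channels, was below the floor and so was not tested, but its levels stood apart on 1 array. After quantile normalization it was at 7.89 in Id control 2, against 4.29 to 4.69 on the other 5 arrays. That is the array on which Myl7 and Myl4 were high, and the part of atrial tissue in it was not tested. Fgf12 was named after its values were seen.

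Of the other marker lists, the summed level of red cell genes (2 of 3 measured genes past the floor) was 9.77 in WT and 10.72 and 10.35 on the treated and untreated arrays, against 8.40 to 8.62 on the other arrays. The sums of skeletal muscle markers (3 of 12 past the floor) spanned 0.43, and those of smooth muscle and pericytes (9 of 10) 0.60.

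Cntn2, a cell adhesion gene that marks fast-conducting fibres, was at 5.65 on the WT array, 5.82 and 6.15 on the Id control arrays, 6.18 in Id cKO, and 6.72 and 6.88 in the treated and untreated hearts. The summed list of conduction fibre markers spanned 0.17 over the same arrays. Cntn2 was named after its values were seen. In Id cKO it differed from Id control by 0.21 (limma adjusted p = 0.68).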
